A study of Mus musculus with 6 samples.

Results

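The B-lineage transcription factors examined here are 10 genes, Pax5, Ebf1, Foxo1, Ikzf1, Ikzf3, Pou2af1, Lef1, Bach2, Sox4 and Bcl11a, picked by symbol from the 33924 genes of the count table. All 10 were found and all 10 passed the filter on low counts. They were followed in 3 groups of 2 mouse RNA libraries each. Leukemia 1 and leukemia 92 are primary leukemias of genotype Mll-Af4/ N-RasG12D, labelled as bone marrow. The starting cells, lineage-depleted and positive for c-Kit and Sca1, came from the marrow of Mll-Af4 donors 6 to 8 weeks old and received a Cre retrovirus with a TdTomato marker and then an N-RasG12D retrovirus. For each transplant 250000 such cells went into recipients given 900 rads, together with 200000 wild-type helper marrow cells, so normal donor cells were also present in the graft. The third group is wild-type pro-B cells, taken from marrow by a B220+CD43+IgM- sort, with no donor age given in the sources used here. N-RasG12D stands under a retroviral promoter, and there is no group with the Mll-Af4 allele alone. The labels do not say whether the 2 libraries of a group come from separate animals, so the spread between them may be technical. P-values between the leukemias measure that spread within the 3 groups. Against pro-B cells the libraries of each leukemia were summed. Those p-values measure the spread between the 2 leukemias and between the 2 pro-B libraries.

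In early B-cell development Ebf1 and its partners open B-lineage genes, Pax5 fixes the commitment to that lineage, and Foxo1 works with both to switch on the recombinase and the interleukin 7 receptor. Ikaros (Ikzf1) and Aiolos (Ikzf3) are zinc-finger regulators of the step from the dividing pro-B cell to the resting pre-B cell, and Pou2af1 is the B-cell coactivator of octamer-binding factors. Lef1 is a nuclear effector of Wnt signalling, Bach2 a repressor that pairs with small Maf proteins, Sox4 a survival factor of pro-B cells and Bcl11a a zinc-finger factor needed to form the lineage. PAX5, EBF1 and IKZF1 are recurrently mutated or deleted in human B-cell leukemia.

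Gene counts summed to between 22153444 and 27444759 per library, and the 10 factors held 0.185% to 0.362% of them. Levels are given as CPM, read counts relative to the TMM-scaled library size, and compare 1 gene between libraries, not genes of different length with each other. The lowest count of any factor in any library was 160 reads, for Sox4 in leukemia 92. The libraries of leukemia 1 stood apart from each other, with an SD of log2 differences between replicates of 1.117 over genes, against 0.23 in leukemia 92 and 0.24 in pro-B cells. Replicate 2 of leukemia 1 also carried 18871 CPM of granulocyte and monocyte markers against 649 CPM in replicate 1, so each result below is also given without it where that matters.

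The promoters of the factors whose changes passed a test are shown because the results turn on these genes. RefSeq start sites (GRCm38.p6) were matched for 9 of the 10 factors, all but Ikzf3, and the 250 bases before the most upstream start are printed 5′ to 3′ on the gene's strand. Capitals mark a match to the EBF palindrome (TCCC, 2 free bases, GGGA).
Foxo1, chr3:52268087-52268336, + strand: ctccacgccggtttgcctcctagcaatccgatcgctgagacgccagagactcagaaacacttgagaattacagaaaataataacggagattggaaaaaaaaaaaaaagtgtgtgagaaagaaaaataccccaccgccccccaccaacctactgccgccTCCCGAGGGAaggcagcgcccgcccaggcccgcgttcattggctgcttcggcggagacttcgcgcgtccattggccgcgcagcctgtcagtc
Lef1, chr3:131110047-131110296, + strand: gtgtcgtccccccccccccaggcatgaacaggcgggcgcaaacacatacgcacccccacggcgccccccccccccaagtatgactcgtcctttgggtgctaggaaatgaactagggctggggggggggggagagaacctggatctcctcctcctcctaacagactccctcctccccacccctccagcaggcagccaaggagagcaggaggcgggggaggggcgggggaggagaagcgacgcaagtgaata
Bach2, chr4:32417185-32417434, + strand: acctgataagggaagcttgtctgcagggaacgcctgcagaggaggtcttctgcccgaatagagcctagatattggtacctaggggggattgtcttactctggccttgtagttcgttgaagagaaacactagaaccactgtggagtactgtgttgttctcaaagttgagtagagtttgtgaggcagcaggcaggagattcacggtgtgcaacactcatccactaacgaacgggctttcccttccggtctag
The match in the Foxo1 window begins at position -92 from the start site. Foxo1 was the only one of the 9 factors with it, against 0.779% of 32851 windows of all genes. Those background windows take in every distinct start of a gene, not only the most upstream, so they are not wholly like the windows of the factors. Both strands were searched, and the palindrome and the Ikaros core can share letters. The Ikaros core TGGGAA was in the windows of Bcl11a and Sox4, against 21.6% of all windows, and ACAAAG, a SOX motif, in that of Ikzf1, against 16.5%. The octamer ATGCAAAT, the FOXO motif TGTTTAC, the TCF/LEF motif CTTTGAT and the BACH motif TGAGTCA were in 0 of the 9 windows. A match is a string of letters and not a measured site. GC content was 56.0% in the Foxo1 window, 66.4% in that of Lef1 and 50.4% in that of Bach2, with a median of 52.4% over all windows.

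The main comparison asks how these regulators differ between the leukemias and the normal pro-B cell. Bach2, Lef1 and Ikzf3 fell in leukemia, Bach2 to 9.92% of its pro-B mean in leukemia 92. No factor rose by the test. Pax5 was the single factor with all 4 leukemia libraries above both pro-B libraries, without passing it. Ebf1, Foxo1 and Pou2af1 overlapped between leukemia and pro-B cells, and Sox4, Ikzf1 and Bcl11a were lower in all 4 leukemia libraries without passing the test. With the 2 libraries of each leukemia summed and 2 leukemias compared with 2 pro-B libraries, 3 of 10 factors were called lower and 0 higher by edgeR's quasi-likelihood test at an adjusted p under 0.05. Over all 15280 genes tested 20.2% were called, 10.7% lower and 9.54% higher. At an unadjusted p under 0.05 there were 6 of 10 factors, beside 38.8% of all genes. DESeq2 called 4 factors lower and 1 higher, beside 14.6% and 14.2% of the genes it gave an adjusted p. All 4 leukemia libraries lay below both pro-B libraries for 6 factors and above them for 1, against 27.3% and 23.4% of all genes.

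**Figure D1:**
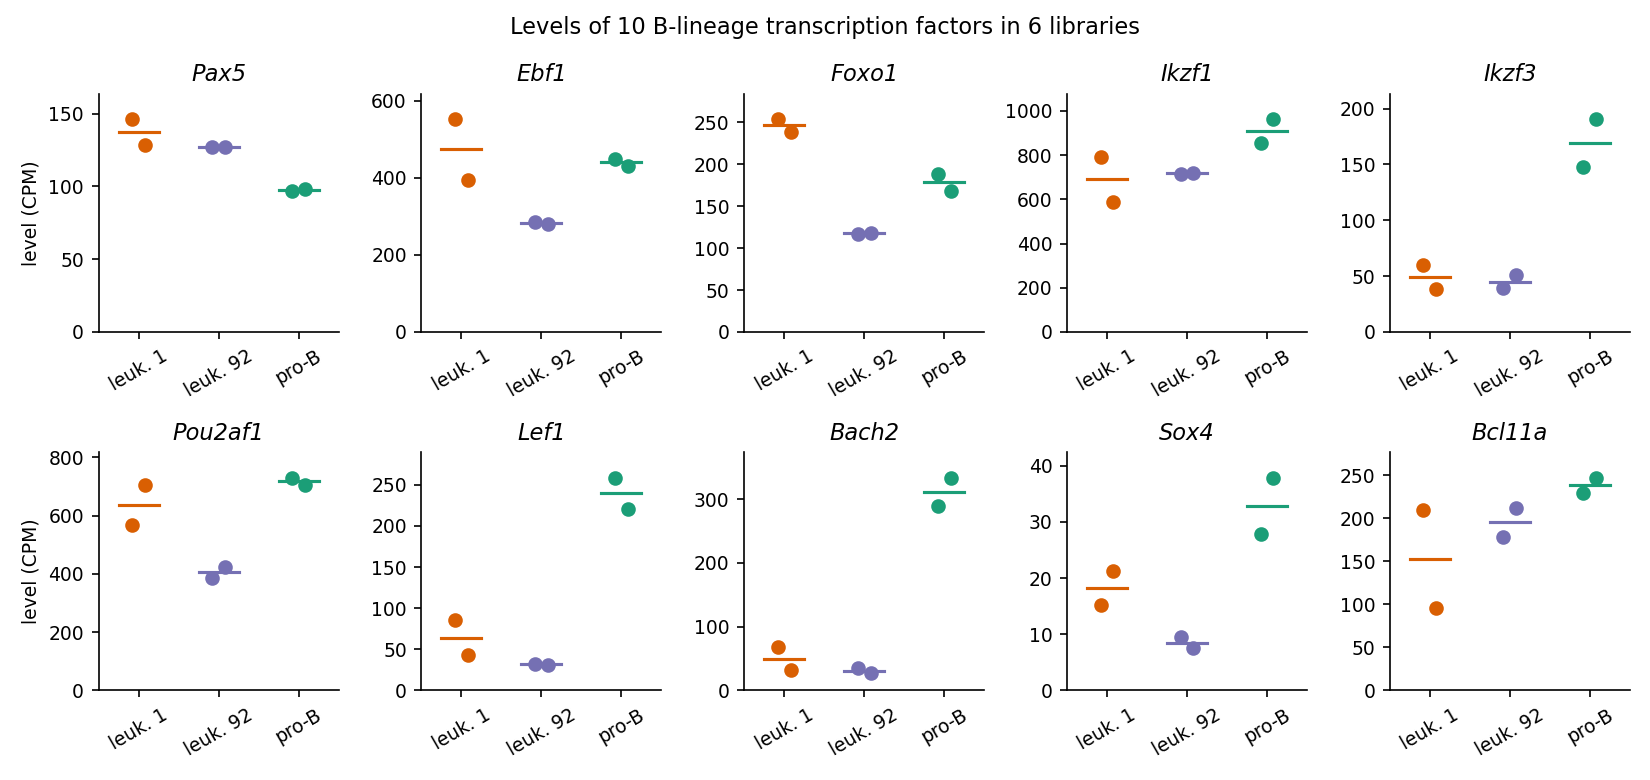
Level of each factor in CPM (vertical axes, starting at 0) in the 2 libraries of each leukemia and of the pro-B group, 1 point per library, with a line at the mean of each pair. Bach2, Lef1 and Ikzf3 sit far below their pro-B levels in all 4 leukemia libraries, while Pax5 sits above its pro-B level in all 4.

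Among the factors at the head of the lineage, Pax5 stood at 146 and 129 CPM in replicates 1 and 2 of leukemia 1, 127 and 127 CPM in leukemia 92, and at 96.8 and 98.3 CPM in pro-B cells. The groups do not overlap, and the 3 lowest leukemia values lie within 2 CPM of each other. The log2 change in leukemia was 0.44 (SE 0.11, edgeR adjusted p = 0.062). DESeq2 gave Pax5 an adjusted p of 0.033, and a fit of all 6 libraries with 1 coefficient per group gave 0.035, so its place beside the threshold depends on the tool and on the unit.

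Ebf1, the factor that acts upstream of Pax5, was at 553 and 396 CPM in leukemia 1, at 287 and 282 CPM in leukemia 92, and at 450 and 431 CPM in pro-B cells. Leukemia 92 was the low group, at 64.5% of the pro-B mean, while the leukemia 1 libraries lay on either side of the pro-B pair. The change over both leukemias was -0.23 (SE 0.25, adjusted p = 0.56), with -0.36 and -0.087 without replicate 1 and 2 of leukemia 1, and it was 0.06 in the fit of leukemia 1 alone, which has no replicate leukemia and takes its spread from the pro-B pair. The balance of these 2 factors shifted within libraries: Pax5 had 21.5 and 22.8 counts per 100 Ebf1 counts in pro-B cells, 26.4 and 32.5 in leukemia 1 and 44.2 and 45.2 in leukemia 92. These ratios are a description of single libraries and were not tested.

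Foxo1, the forkhead factor restrained by AKT, was at 254 and 239 CPM in leukemia 1, at 117 and 119 CPM in leukemia 92, and at 189 and 168 CPM in pro-B cells. Leukemia 1 was the high group and leukemia 92 the low one, with the pro-B libraries between them and no overlap among the 3. Over both leukemias the log2 change was near 0 (0.02, SE 0.37, adjusted p = 0.97). Its sign turned to -0.08 without pro-B replicate 2.

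The Ikaros pair moved by different amounts. Ikzf1 was at 791 and 589 CPM in leukemia 1, at 716 and 721 CPM in leukemia 92, and at 855 and 963 CPM in pro-B cells. All leukemia values were lower, and the change of -0.36 (SE 0.13) did not pass (adjusted p = 0.13). Ikzf3 was at 59.8 and 38.6 CPM in leukemia 1, at 39.0 and 51.2 CPM in leukemia 92, and at 147 and 191 CPM in pro-B cells. The 2 leukemias overlapped, at 29.1% and 26.7% of the pro-B mean. Ikzf3 fell by 1.85 (log2 scale, SE 0.18, adjusted p = 0.015). Per 100 Ikzf1 counts there were 17.2 and 19.8 Ikzf3 counts in pro-B cells and 5.45 to 7.57 in the leukemia libraries.

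Bach2 was at 68.0 and 32.2 CPM in leukemia 1, at 34.7 and 27.1 CPM in leukemia 92, and at 289 and 334 CPM in pro-B cells. The highest leukemia library was far below the lower pro-B library. Bach2 fell by 2.95 (log2 scale, SE 0.26, adjusted p = 0.014), the largest fitted change among the 10 factors. Lef1 was at 85.8 and 43.0 CPM in leukemia 1, at 32.2 and 31.1 CPM in leukemia 92, and at 259 and 220 CPM in pro-B cells. Leukemia 1 replicate 1 was the highest of the leukemia libraries for both genes. Lef1 fell by 2.34 (SE 0.37, adjusted p = 0.028), with a change of -2.05 and an adjusted p of 0.069 without leukemia 1 replicate 2. Without pro-B replicate 1 or replicate 2 edgeR called 0 genes in all, while 2645 and 2650 had an unadjusted p under 0.05. The adjusted p was then 0.13 and 0.13 for Bach2, 0.17 and 0.17 for Lef1 and 0.13 and 0.15 for Ikzf3, with changes of -2.87 to -3.07, -2.24 to -2.47 and -1.67 to -2.04. Bach2 and Ikzf3 passed without any single leukemia library.

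Of the other factors, Sox4 was the one with the lowest counts, at 15.2 and 21.2 CPM in leukemia 1, at 9.54 and 7.48 CPM in leukemia 92, and at 27.8 and 37.9 CPM in pro-B cells. The 3 groups did not overlap. Its change was -1.29 (SE 0.42, adjusted p = 0.11), while DESeq2 (adjusted p = 0.017) and the edgeR fit of all 6 libraries (adjusted p = 0.012) called it lower. Pou2af1 was at 568 and 707 CPM in leukemia 1, at 388 and 423 CPM in leukemia 92, and at 731 and 705 CPM in pro-B cells. Leukemia 1 replicate 2 reached the pro-B range, and the change was -0.46 (SE 0.23, adjusted p = 0.23). The 6-library fit gave Pou2af1 an adjusted p of 0.038. Bcl11a was at 209 and 95.8 CPM in leukemia 1, at 179 and 212 CPM in leukemia 92, and at 230 and 247 CPM in pro-B cells. Leukemia 1 replicate 2 was the lowest library, and the change of -0.46 (SE 0.20, adjusted p = 0.18) became -0.24 without that library.

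**Figure D2:**
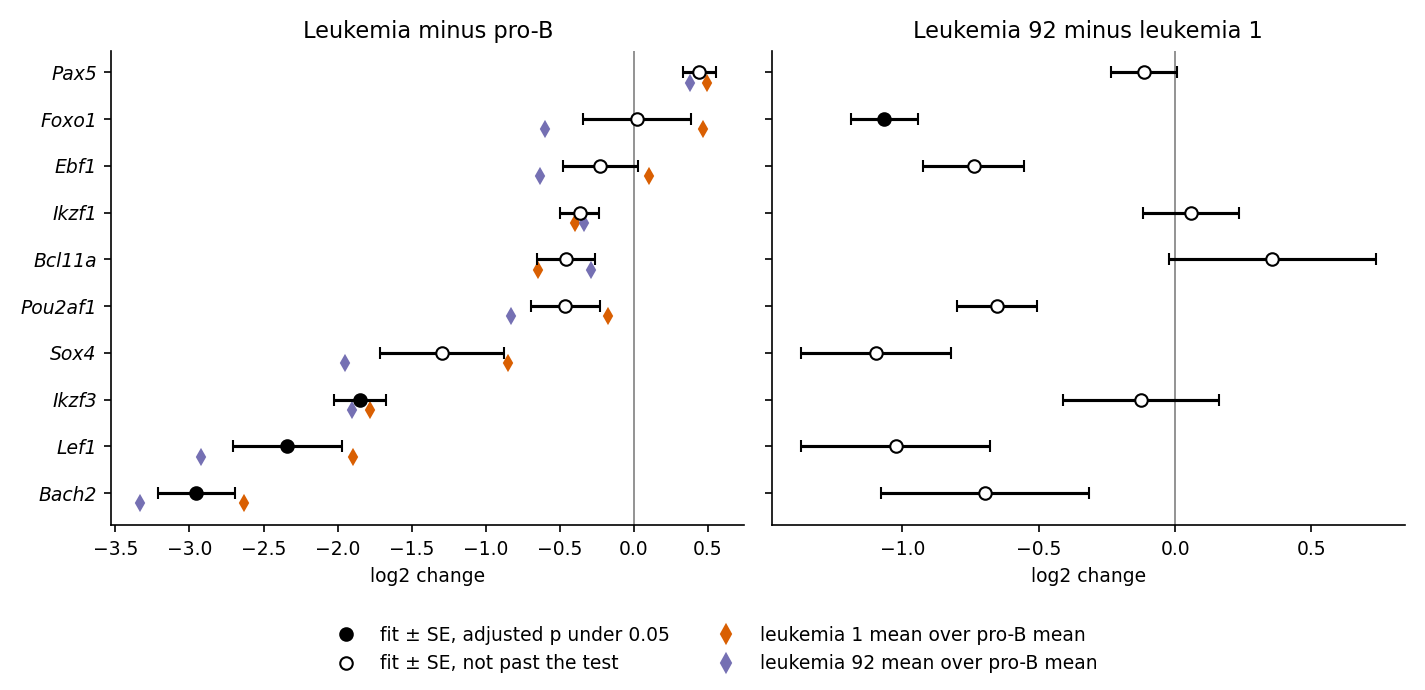
Left, fitted log2 change of each factor in leukemia minus pro-B (circles with SE, filled at an adjusted p under 0.05), with diamonds for the mean of each leukemia over the pro-B mean. Right, the fitted log2 change of leukemia 92 minus leukemia 1. Bach2, Lef1 and Ikzf3 are the filled circles on the left and Foxo1 is the filled circle on the right, and the diamonds of Foxo1 and Ebf1 lie on opposite sides of 0.

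Of 4 marker lists of other cells, those other than the granulocyte and monocyte list had lower sums in leukemia than in the pro-B libraries. B-lineage cells may express some of these genes, so the sums do not show how many other cells were present. Tcf4, at 561 and 609 CPM in the pro-B libraries, is on both the plasmacytoid list and the list of early B-cell factors. Summed plasmacytoid dendritic cell markers stood at 3402 to 3839 CPM in pro-B cells and 429 to 573 CPM in leukemia, with 8 of 10 genes lower in all 4 leukemia libraries. Ccr9 was at 138 and 178 CPM in the pro-B libraries and at most 1.92 CPM in leukemia. T and NK cell markers stood at 514 to 533 CPM against 14.6 to 90.0 CPM, with 13 of 16 genes lower, among them Gzma (105 and 90.5 CPM in pro-B cells). Erythroid and platelet markers stood at 67.2 to 158 CPM against 2.48 to 9.61 CPM, with 7 of 12 genes lower, and the reads of the near-identical globin genes in that list cannot be assigned with certainty. Granulocyte and monocyte markers were at 621 to 627 CPM in pro-B cells and 649 to 18871 CPM in leukemia, with 5 of 15 genes higher in all 4 leukemia libraries. Over all genes tested, 27.3% were lower and 23.4% higher in all 4 leukemia libraries than in both pro-B libraries. The granulocyte and monocyte list had a median log2 change of 3.43 and 4 rises. Without leukemia 1 replicate 2 its median was 0.18, with 1 rise. No marker on these lists was without reads in all 4 leukemia libraries or in both pro-B libraries. Plasmacytoid dendritic, T and NK cells also express several of these 10 factors, and the part of such cells in the falls of Bach2, Lef1 and Ikzf3 was not tested. In such bulk RNA, fewer cells of a type and less RNA per cell cannot be told apart.

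The labelled cell type was checked on 15 pro-B and pre-B markers, which summed to 7389 to 8197 CPM in pro-B cells and 5284 to 7043 CPM in leukemia. Dntt, the terminal transferase of pro-B cells, was at 970 and 604 CPM in pro-B cells and 0 to 1.11 CPM in leukemia. Of the 15 markers 1 rose, 6 fell and 8 did not pass, with a median log2 change of -1.115. The rises numbered 2 without leukemia 1 replicate 2.

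**Figure D3:**
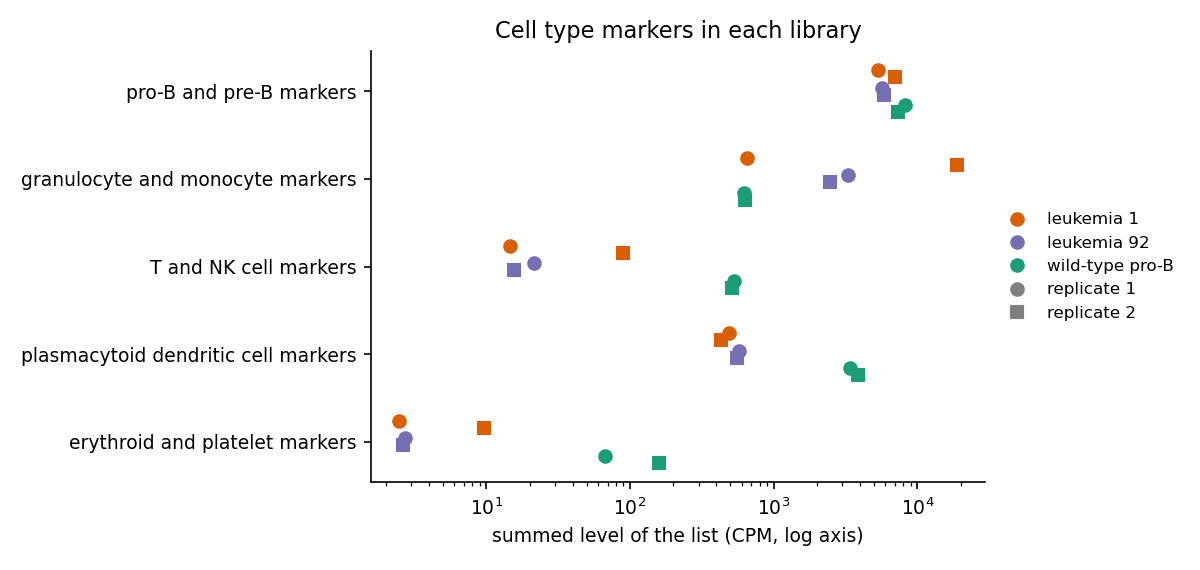
Summed CPM of each marker list (horizontal log axis) in each library, circles for replicate 1 and squares for replicate 2. Plasmacytoid dendritic, T and NK, and erythroid markers lie higher in both pro-B libraries than in any leukemia library, and leukemia 1 replicate 2 reaches 18871 CPM of granulocyte and monocyte markers.

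Genes known to respond to these factors were followed as lists chosen with earlier results of these data known, so their counts are a description. For orientation, 1458 of 15280 genes tested rose and 1631 fell, with a median log2 change of 0.02. Without pro-B replicate 1 or 2 none of the lists had a call, since edgeR called 0 genes.

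Of 21 genes activated by Pax5 and Ebf1, 5 rose, 5 fell and 11 did not pass, with a median log2 change of 0.58. Cd79a, a signalling chain of the B-cell receptor, rose from 432 ± 26.8 CPM (SD, n = 2) in pro-B cells to 1295 ± 204 CPM (SD, n = 4 libraries) in leukemia. Cr2, the complement receptor of mature B cells, rose from 1.89 ± 0.526 to 78.2 ± 37.7 CPM, a log2 change of 5.37 (SE 0.56, adjusted p = 0.016). Blk, a Src-family kinase of B cells, dropped to 4.38 ± 1.74 CPM from 164 ± 22.9, and Spib, an ETS factor, from 538 ± 48.8 to 76.4 ± 37.4 CPM. Spib is a transcription factor of plasmacytoid dendritic cells too, whose markers were lower in the same libraries. Without leukemia 1 replicate 1 the list had 4 rises and 3 falls, and without replicate 2 its median was 0.27. The reads of Vpreb1 and Vpreb2, close paralogs in this list, cannot be assigned with certainty.

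Of 14 genes repressed by Pax5, 2 rose, 0 fell and 12 did not pass, with a median of 0.01. At an unadjusted p under 0.05 there were 8 of 14, beside 38.8% of all genes. DESeq2 called 4 higher and 3 lower, and the 6-library fit 3 and 2. The median ran from -0.085 to 0.085 with single libraries left out and was -0.32 in the 6-library fit. The rises were Csf1r, the receptor for macrophage colony-stimulating factor and also on the granulocyte and monocyte list, from 4.41 ± 1.21 to 312 ± 162 CPM, and the chemokine Ccl9, from 3.10 ± 0.0863 to 40.8 ± 33.3 CPM. Csf1r was at 138 and 212 CPM in leukemia 1 but at 464 and 436 CPM in leukemia 92, where the granulocyte and monocyte markers summed to 3279 and 2476 CPM against 621 to 627 CPM in pro-B cells. The part of such cells in the rise was not tested. Without leukemia 1 replicate 2, or without leukemia 92 replicate 1, 1 gene of the list fell.

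Of 16 Foxo1 targets, 4 rose, 2 fell and 10 did not pass, with a median of -0.28 (-0.12 without pro-B replicate 2). In 2 other fits the falls outnumbered the rises: DESeq2 called 4 rises and 6 falls, and the 6-library fit 3 and 7. Rag2, a subunit of the V(D)J recombinase, fell from 42.4 ± 6.998 to 4.07 ± 2.67 CPM (edgeR log2 change -3.39, SE 0.67, adjusted p = 0.042), a call lost without leukemia 1 replicate 1. Trib2, a pseudokinase, fell by 1.40 on the log2 scale. Bcl6, the repressor of germinal centre B cells, rose by 1.03. Klf2, a regulator of lymphocyte trafficking, rose by 2.22, against 1.502 and no call without leukemia 1 replicate 2, and the list then had 2 rises. Klf2 also lost its call in the 6-library fit, with or without a term for replicate number.

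Of 12 genes repressed by Bach factors, 7 rose, 1 fell and 4 did not pass, with a median of 0.79, and 4 rose without leukemia 1 replicate 2. Cebpb, a myeloid transcription factor, rose from 1.33 ± 0.102 to 20.0 ± 1.91 CPM (edgeR log2 change 3.92, SE 0.24, adjusted p = 0.0085). Cdkn1a, the cell cycle inhibitor p21 and also a p53 target, rose from 30.8 ± 8.23 to 397 ± 103 CPM. Gclc, an enzyme of glutathione synthesis, fell by 1.01 on the log2 scale, a call lost without leukemia 1 replicate 2 (change -0.67). Gclc also lost its call in the 6-library fit, with or without a term for replicate number. Mafg, a small Maf partner of Bach proteins, rose from 16.6 ± 1.06 to 55.5 ± 6.28 CPM.

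Of 9 Lef1 and Wnt target genes tested, 1 rose, 4 fell and 4 did not pass, with a median of -1.88. DESeq2 and the 6-library fit each called 2 rises, with 5 and 4 falls. The number of falls was 2 without leukemia 1 replicate 2, and without replicate 1 there were 0 rises and 3 falls. Lgr5, a Wnt receptor component, fell from 75.3 ± 6.21 to 1.01 ± 1.24 CPM, a call lost without leukemia 1 replicate 1. Nkd2, a feedback inhibitor, was at 10.6 and 6.98 CPM in pro-B cells and 0 to 0.163 CPM in leukemia. Ccnd1, cyclin D1, rose by 1.99 (log2 scale, SE 0.41, adjusted p = 0.044), and did not pass without leukemia 1 replicate 1 (change 1.97, adjusted p = 0.062). Without leukemia 92 replicate 1 the list had 2 rises and 5 falls.

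Of 12 Ikaros and Aiolos targets of pre-B cells, 1 rose, 2 fell and 9 did not pass, with a median of -0.39. The list was not split into activated and repressed genes, so its counts and median have no expected direction. DESeq2 called 2 rises and 5 falls, and the 6-library fit 1 and 6. The rise in the main fit was Ccnd3, cyclin D3 of dividing pre-B cells, by 1.04 (log2 scale, SE 0.12, adjusted p = 0.017). Ccnd3 did not pass without leukemia 1 replicate 2, in the 6-library fit, or in that fit with a term for replicate number. The 1 rise of the 6-library fit was therefore another gene. The falls were Dntt and Rag2. Without leukemia 92 replicate 1 there were 2 rises, and without leukemia 1 replicate 2 there were 0 rises and 3 falls.

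Of 18 paralogues of the 10 factors, 7 had too few reads to be tested. Of the 11 tested, 2 fell, 0 rose and 9 did not pass, with a median of -2.05. At an unadjusted p under 0.05 there were 7 of 11, beside 38.8% of all genes. DESeq2 called 4 falls and 0 rises and the 6-library fit 6 and 0. The median was -1.27 without leukemia 1 replicate 1 and -1.31 without pro-B replicate 1. Sox12, a relative of Sox4, fell from 12.5 ± 0.941 to 0.606 ± 0.168 CPM, and Tcf7l1, a relative of Lef1, from 0.550 ± 0.0605 to 0.0897 ± 0.0541 CPM. Tcf7l1 rests on few reads, 1 to 4 in the leukemia libraries and 16 and 13 in the pro-B libraries. It lost its call with DESeq2, in a fit with a term for replicate number, and without leukemia 1 replicate 1. Without that library 1 paralogue rose and 1 fell. The number of falls was 4 without leukemia 1 replicate 2 and 3 without leukemia 92 replicate 1.

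Of 23 partners and corepressors, 1 rose, 1 fell and 21 did not pass, with a median of -0.03. There were 2 rises without leukemia 1 replicate 2, and 2 falls without replicate 1, with medians of 0.0078 and -0.065. DESeq2 called 2 rises and 5 falls, and the 6-library fit 1 and 5. The fall was Smarca4, the BRG1 ATPase of chromatin remodelling complexes, from 952 ± 52.7 to 267 ± 22.2 CPM (edgeR log2 change -1.83, SE 0.12, adjusted p = 0.0085). Its 4 leukemia libraries ranged from 245 to 298 CPM.

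Of 25 other early B-cell transcription factors, 4 rose, 5 fell and 16 did not pass, with a median of -0.17. The falls numbered 3 without leukemia 1 replicate 1 (median -0.26) and 8 with DESeq2, and the median was -0.042 without replicate 2. Sfpi1, which encodes the ETS factor PU.1, rose from 23.7 ± 2.93 to 172 ± 38.8 CPM (edgeR log2 change 2.88, SE 0.23, adjusted p = 0.013). Mef2c, a MADS-box factor of lymphoid progenitors, rose by 1.85 but did not pass without leukemia 1 replicate 1. Tcf4, an E protein that is itself a plasmacytoid dendritic cell marker, fell by 1.62 beside Spib.

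**Figure D4:**
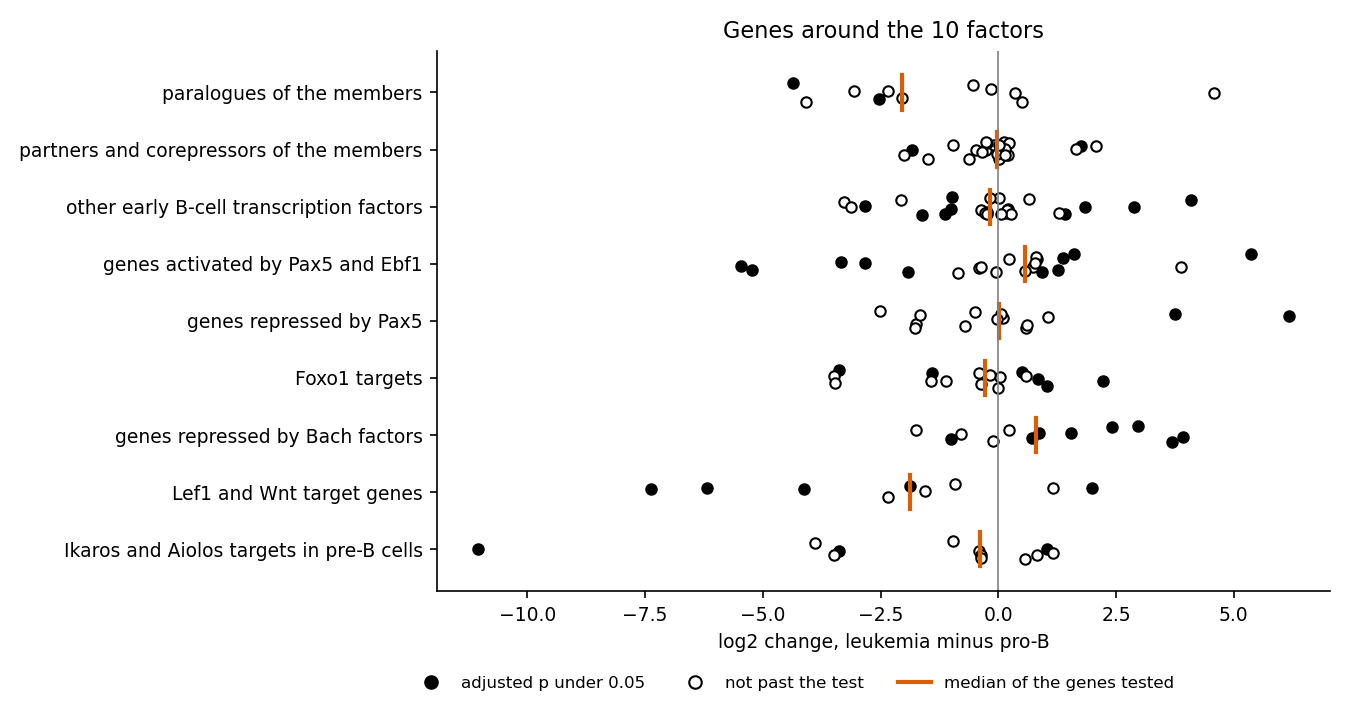
Log2 change in leukemia minus pro-B (horizontal axis) of each tested gene of 9 lists around the factors, filled at an adjusted p under 0.05, with an orange bar at the median of the list. Points are shifted vertically at random to separate them. Genes repressed by Bach factors have 7 filled points on the right, and most lists have filled points on both sides of 0.

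The other comparison asks how the 2 leukemias differ from each other. Foxo1 was lower in leukemia 92, at 47.7% of its mean in leukemia 1, and was the only factor called. Sox4, Lef1, Ebf1, Pou2af1 and Pax5 were lower in both libraries of leukemia 92 than in either library of leukemia 1 without passing the test. For Pax5 the gap was narrow, with 127 and 127 CPM in leukemia 92 against 146 and 129 CPM in leukemia 1. In the edgeR fit of all 6 libraries 1 of 10 factors was called lower and 0 higher, against 1.27% lower and 1.82% higher, 3.09% in all, of the 14979 genes tested. At an unadjusted p under 0.05 there were 5 of 10 factors, all lower in leukemia 92, beside 25.1% of all genes in either direction and 12.9% lower. Both libraries of leukemia 92 lay below both of leukemia 1 for 6 factors and above them for 0, against 25.8% and 25.4% of all genes.

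The log2 change of Foxo1 in leukemia 92 minus leukemia 1 was -1.07 (SE 0.12, adjusted p = 0.031). It ranged from -1.11 to -1.01 over the 11 alternatives, of which 5 kept the call. The call was lost with leukemia 92 replicate 1 or 2 left out (adjusted p = 0.42 and 0.33), and with pro-B replicate 1 or 2 left out (0.20 and 0.20), when edgeR called 0 genes in all, with 1552 to 2303 genes at an unadjusted p under 0.05. Without leukemia 1 replicate 1 or 2 a single library stands for leukemia 1, and the fit called 7975 and 8133 genes.

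The changes of the other factors were -1.10 for Sox4 (SE 0.28, adjusted p = 0.10), -1.02 for Lef1 (SE 0.35, adjusted p = 0.16), -0.74 for Ebf1 (SE 0.19, adjusted p = 0.10) and -0.65 for Pou2af1 (SE 0.15, adjusted p = 0.083). DESeq2 called these 4 and Foxo1 lower, beside 9.67% of the genes it gave an adjusted p. The Lef1 change was -0.43 without leukemia 1 replicate 1 and -1.44 without replicate 2, and the Ebf1 change -0.47 and -0.96. Bach2, with a change of -0.70 (SE 0.38, adjusted p = 0.32), had overlapping libraries, and 1 library decided its value: -0.049 without leukemia 1 replicate 1, and -1.13 and called (adjusted p = 0.0020) without replicate 2. Pax5 (-0.11), Ikzf1 (0.06), Ikzf3 (-0.12) and Bcl11a (0.36) had adjusted p values of 0.59 to 0.86. Without leukemia 1 replicate 1 Bcl11a (1.04) and Ikzf1 (0.30) were called higher, and without replicate 2 Pax5 (-0.20) was called lower. The sign turned for Ikzf1 (-0.14) and Bcl11a (-0.10) without leukemia 1 replicate 2, and for Ikzf3 without leukemia 1 replicate 1 (0.23) or leukemia 92 replicate 1 (0.07).

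Among the genes around the factors, Rag2 was lower in leukemia 92 (log2 change -1.84, SE 0.20, adjusted p = 0.030), at 1.77 and 1.78 CPM against 6.71 and 6.03 CPM in leukemia 1. Ets1, a lymphoid ETS factor, was at 14.4 and 19.4 CPM in leukemia 92, at 160 and 109 CPM in leukemia 1 and at 715 and 710 CPM in pro-B cells (log2 change -2.99 between the leukemias, SE 0.26, adjusted p = 0.026). Cd22, an inhibitory coreceptor of B cells, was at 320 and 288 CPM in leukemia 92 against 71.4 and 69.3 CPM in leukemia 1 (adjusted p = 0.023). Tcf7l2 (-2.99) and Hes1 (-3.70), a Notch target, were also lower in leukemia 92. Xbp1, a secretory cell factor, was lower by a change of -0.90 and Ccnd1 higher by 0.96. Each of these 7 genes also lost its call without either leukemia 92 library or either pro-B library.

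The factors differed in how well their library pairs agreed. In leukemia 1 the log2 ratio of replicate 2 to replicate 1 ranged from -1.13 for Bcl11a to 0.48 for Sox4, with Bach2 at -1.08 and Lef1 at -0.997. In leukemia 92 it ranged from -0.35 for Bach2 to 0.39 for Ikzf3, and in pro-B cells from -0.23 for Lef1 to 0.45 for Sox4. Pax5, at -0.19, and Foxo1, at -0.09, were the steadiest factors in leukemia 1. Over all genes the leukemia 1 ratio moved with transcript length: with genes cut into 5 equal groups by length, its median was 0.28 in the shortest group and -0.33 in the longest, against 0.01 and -0.02 in leukemia 92. Longest GENCODE M21 transcripts were used for length, with a value for 97.0% of 14979 genes. Of the 10 factors 6 lie in the longest group, Bcl11a and Bach2 among them and Lef1 and Sox4 not. The part of length and of the granulocyte markers in these differences was not tested.

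**Figure D5:**
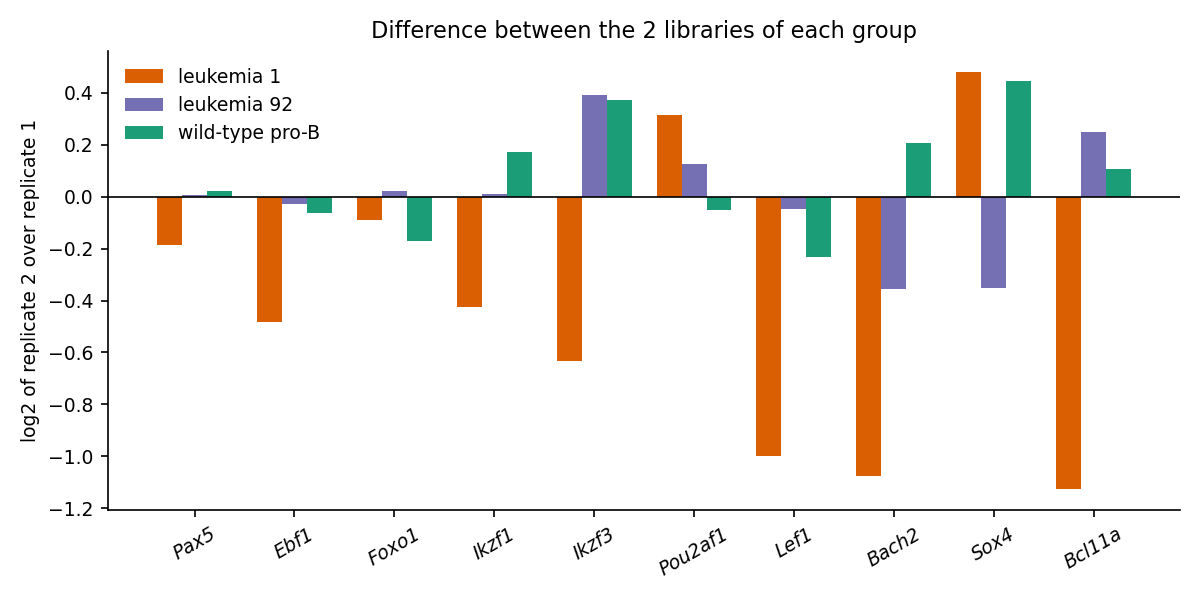
Log2 ratio of replicate 2 to replicate 1 (vertical axis, bars from 0) for each factor in leukemia 1, leukemia 92 and pro-B cells. The bars of leukemia 1 reach -1.13 for Bcl11a, -1.08 for Bach2 and -0.997 for Lef1, while the other pairs stay between -0.35 and 0.45.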

How the data were processed

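Per the labels' protocols, RNeasy was used for extraction and TruSeq for the libraries. Counts were deposited as 1 table of whole numbers, unnormalized. STAR 2.4, HTSeq 0.6.1, DESeq2 and mm9 are named in the submitters' processing notes with no role or order, while no source used here names an annotation or strandedness. The 5 entries that name no gene held 34.0% to 39.6% of a library and were left out.

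Leukemia against pro-B cells was fitted on counts summed per leukemia, because the labels place both libraries under 1 leukemia number. The 2 leukemias were compared in a 3-group model of all 6 libraries. The software was R 4.3.3 with edgeR 4.0.16 (low counts removed by filterByExpr, minimum 10; TMM; robust quasi-likelihood test, Benjamini-Hochberg adjustment over all genes, called under 0.05). SE was taken from the F statistic. CPM used TMM factors over 6 libraries. DESeq2 1.42.0, RLE factors, no filter, a replicate block and left-out libraries were alternatives. The scripts were tested on simulated data.

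The 10 factors and the other lists (15 lists, 232 entries, all matched, 3 by older symbols) were chosen with earlier results of these data known. Named genes were all 10 factors and, per list, up to 2 called genes in each direction with the smallest p (1 between leukemias). Some genes that the rule names are not reported here. At this depth 3 counts correspond to 0.111 to 0.140 CPM.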

Additional observations from a re-analysis of the deposited data

Results flagged for a closer look

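Pax5 was flagged in the 4 leukemia libraries, because its highest value, 146 CPM in leukemia 1 replicate 1, stood apart from the other 3, which lay between 127 and 129 CPM. The gap was 0.904 of the whole range, above the 95% critical value of Dixon's test for 4 values. Of 10 factors examined 1 was flagged, and chance flags about 5% of such groups.

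Foxo1 was flagged because the 2 leukemias differed by the test of the difference itself, with a log2 change of -1.07 for leukemia 92 minus leukemia 1. Its mean in leukemia 1 was 246 ± 10.7 CPM (SD, n = 2). The mean of leukemia 92 was lower, 118 ± 1.30 CPM, and the pro-B mean lay between, at 178 ± 15.0 CPM.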

How the results depend on the processing

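The fits of leukemia against pro-B cells kept the sign of Bach2, Lef1, Ikzf3, Sox4, Ikzf1, Bcl11a, Pou2af1 and Pax5 in all 13 alternatives. Bach2 ranged from -3.30 to -2.67, Lef1 from -2.90 to -1.96 and Ikzf3 from -2.04 to -1.67. Foxo1 turned to -0.067 in the 6-library fit, -0.065 with the replicate block and -0.58 without both libraries of leukemia 1, and ranged from -0.082 to 0.091 with single libraries left out. Ebf1 turned to 0.057 without both libraries of leukemia 92.

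In place of 3089 genes, DESeq2 called 4780 and the 6-library fit 4712. With single libraries left out the number ranged from 0 to 3244. Without both libraries of leukemia 1 it was 10134 and without both of leukemia 92 it was 9335, fits of 1 summed leukemia in which only the pro-B pair gives a spread. In place of 3 factors lower and 0 higher, the numbers were 5 and 1 in the 6-library fit, 9 and 1 without leukemia 1 and 7 and 2 without leukemia 92, and DESeq2 called 1 higher. With single libraries left out, 0 to 3 were called lower and 0 higher.

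For leukemia 92 minus leukemia 1, DESeq2 called 2676 genes in place of 463 and 5 factors lower in place of 1. With only the 4 leukemia libraries edgeR called 0 genes and 0 factors, with 2366 genes at an unadjusted p under 0.05. With single libraries left out, 0 to 8133 genes, 0 to 7 factors lower and 0 to 2 higher were called. Signs turned with 1 library left out for Ikzf1 (range -0.14 to 0.30), Ikzf3 (-0.41 to 0.23) and Bcl11a (-0.099 to 1.04).

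Replicate numbers did not pair the libraries: deviations of replicate 1 from its group mean correlated at -0.16, 0.06 and -0.03 between the 3 groups, across genes. With the replicate block edgeR called 3373 genes in leukemia against pro-B cells, with 4 factors lower and 0 higher. With the block it called 0 genes and 0 factors between the leukemias, with 3042 genes at an unadjusted p under 0.05. The samples share only a number, so a call lost there is not a weaker effect. The lowest count of a factor was 160. Only 2 leukemias were sampled, which limits every comparison with pro-B cells.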

Other observations

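Profiles over the 6 libraries were compared by the root mean square distance between log2 CPM values, each profile centred on its own mean, over 14979 genes. Among the factors the closest pair was Ebf1 and Foxo1, at 0.21, followed by Ebf1 and Pou2af1, at 0.26, and the most distant was Pax5 and Bach2, at 1.66. The profiles of Ebf1 and Foxo1 are themselves small, with root mean square sizes of 0.35 and 0.44. The distance between Lef1 and Bach2 was 0.34, small beside the size of their own profiles, 1.24 and 1.48.

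Predicted genes, with Gm or Rik names, were left out of the search for the nearest genes. Of the remaining genes the nearest to Bach2 were Fam83f (0.17), Il12rb2 (0.18) and Dsel (0.19). The nearest to Lef1 were Lca5 (0.18), Gphn (0.18) and Nceh1 (0.20). The nearest to Ikzf3 was Peg12 (0.10), to Foxo1 Panx1 (0.043) and to Pax5 Rchy1 (0.014). The profile of Pax5 itself has a size of 0.22, and flat profiles have close neighbours. The points are 6 libraries in 3 groups that share their group differences, so these distances are a description.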
